A study of Mus musculus with 12 samples.

Results

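The genes described here are 8 members of a synaptic adhesion system: the neurexins Nrxn2 and Nrxn3, the neuroligins Nlgn1 and Nlgn2, and the leucine-rich repeat transmembrane genes Lrrtm1, Lrrtm2, Lrrtm3 and Lrrtm4. They were taken by name, out of 55413 annotated genes, and all 8 were found in the annotation. For each gene, H4K12ac peaks were read within 2 kb of the annotated 5′ end, at alternative transcription starts and in the gene body. In all, 259 of 144781 consensus regions (merged peaks found in at least 2 of 10 peak lists) fell on these genes.

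H4K12ac, the acetylation of lysine 12 of histone H4, is found in active chromatin, and TIP60 (KAT5) is one of the enzymes that write it. Neurexins sit in the presynaptic membrane and bind neuroligins and LRRTM proteins on the postsynaptic side, and these contacts organise synapses. Neurexin genes use an upstream promoter for the long α-neurexins and an internal promoter for the short β-neurexins. NLGN1 is found mainly at excitatory synapses and NLGN2 mainly at inhibitory ones, while LRRTM proteins act at excitatory synapses.

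H4K12ac ChIP-Seq was compared between 5 Tip60 cKO and 5 control mice, in neuronal nuclei sorted by FACS from the whole hippocampus at 10 days after the last tamoxifen injection. Tip60 cKO mice carried the tamoxifen-inducible CaMKCreERT2 driver, active in postmitotic excitatory neurons of the forebrain, with both Tip60 alleles floxed. Their control littermates carried the floxed Tip60 gene without the driver, and both groups received tamoxifen. The labels give an age of 3 months, male sex and the strain C57BL/6J for both groups. The sorted nuclei also hold neurons that the driver does not target, so that fewer cells with the mark and less of the mark per cell cannot be told apart. Input chromatin was sequenced as 1 pooled library per genotype.

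The libraries contributed 22864189 to 37923809 tags, and the lists held 105605 ± 26227 peaks in Tip60 cKO and 120779 ± 16861 in controls (SD, n = 5). Tip60 cKO mouse 5 had the fewest tags and, with 64245, the fewest peaks. Of the peaks, 45.3 to 57.8% in lists from Tip60 cKO mice, against 27.4 to 34.5% in lists from controls, stood on an input background at the genome-wide level, and the part of this difference in the results below was not tested. All 5 neuron markers (Rbfox3, Map2, Syt1, Snap25 and Syp) and all 5 markers of excitatory neurons (Slc17a7, Camk2a, Neurod2, Neurod6 and Prox1) had a peak at the 5′ end in every list. None of the 4 inhibitory markers (Gad1, Gad2, Slc32a1 and Dlx1) had one in a control list, and their coverage, summed over the 4 windows, was 0 to 8.87% in Tip60 cKO lists. For 4 astrocyte markers the summed coverage was 0 to 10.7% in lists from Tip60 cKO mice, against 12.9 to 27.99% for controls, with Aqp4 and Aldh1l1 at 0, Gfap with a peak in every control list and Slc1a3 in some lists of both groups. For 3 oligodendrocyte markers it was 28.6 to 60.1% and 49.6 to 55.2%, the highest of the glial lists, with Mog and Olig2 at 0 and Mbp with a peak in every list. For 4 microglia markers it was 0 to 1.60% and 0 to 8.95%, with Cx3cr1, Aif1 and Csf1r at 0 and P2ry12 with a peak in some lists of both groups.

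At the annotated 5′ ends, the rank of H4K12ac within a library did not pass the test between genotypes at any of the 8 genes. The level is given as a TSS rank score: the percent rank of the strongest peak (by fold enrichment over input) within 2 kb of the 5′ end, among the windows of all genes in the same library, with 0 where no peak was called. Such ranks cannot show a change of the mark that all genes share, so an unchanged rank does not mean an unchanged mark. Scores of 21672 genes were compared by limma, and a gene was called when its Benjamini-Hochberg adjusted p was below 0.05. Of the 8 genes 0 were called by limma and 0 had an unadjusted p below 0.05, where 0.157% of all genes tested were called lower and 0.0784% higher in Tip60 cKO. The balance of these calls, 34 lower and 17 higher, turned to 26 and 60 with a mean-dependent robust prior and was 30 and 28 with equal peak numbers per library and 30 and 7 when ranked by pileup. An exact permutation test (two-sided, smallest possible p 0.00794) also gave 0 of 8 genes with p below 0.05, where 6.69% of all genes were lower and 5.79% higher.

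The level at the 5′ end varied among the genes. Nlgn2, Nlgn1, Nrxn2 and Lrrtm1 were strongly marked in controls, at mean rank scores of 92.1 ± 4.74, 90.4 ± 2.71, 89.9 ± 1.61 and 87.6 ± 11.2 (SD, n = 5). Lrrtm2 (76.7 ± 4.38) and Lrrtm4 (75.6 ± 2.99) followed, then Lrrtm3 (60.5 ± 34.6) and Nrxn3 (27.7 ± 38.0). Between neighbours in this order the mean difference was smaller than its SD over the 5 controls in every case, so no single step exceeded the spread. Among protein-coding genes, the control level of Nlgn2 lay at percentile 86.9 and that of Lrrtm4 at percentile 54.0.

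**Figure D1:**
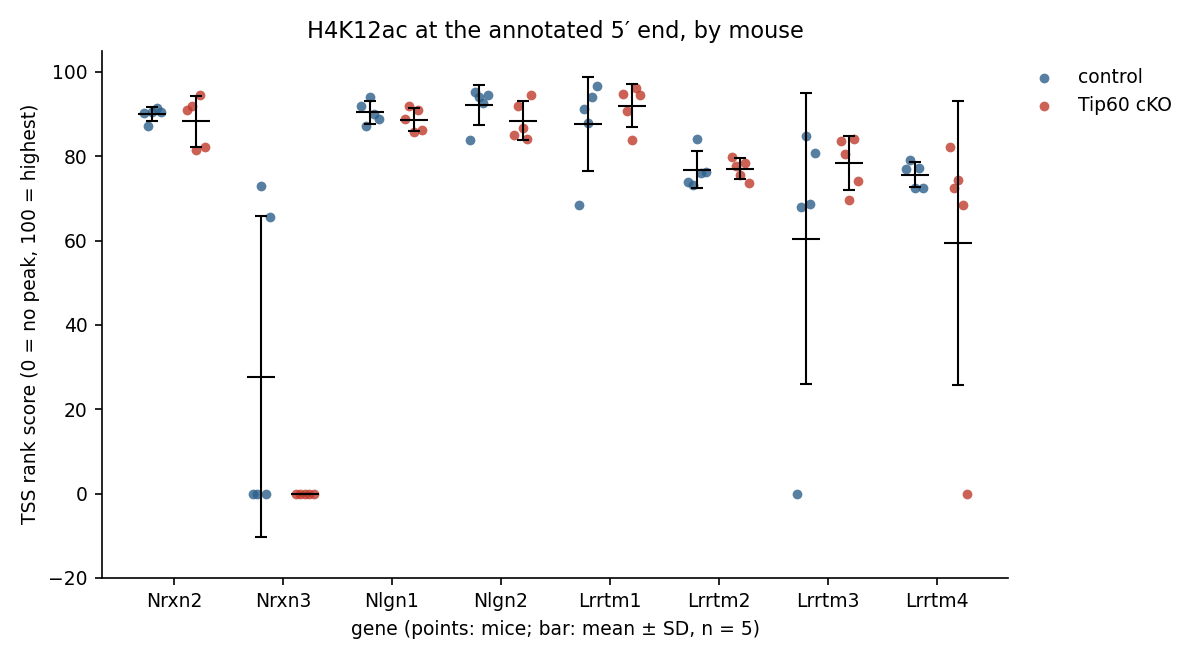
TSS rank score of each gene, with 1 point per mouse and the mean ± SD (n = 5) in black; the y axis gives 0 for no peak and 100 for the highest window of a library, and only error bars reach below 0. The groups overlap at all 8 genes, and Nrxn3 has a peak only in 2 controls.

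Nlgn2, the neuroligin of inhibitory synapses, scored 84.9, 91.9, 86.7, 84.1 and 94.6 in Tip60 cKO mice 1 to 5 and 83.8, 95.2, 94.1, 92.7 and 94.6 in controls 1 to 5. Control mouse 1 was the lowest of all 10, and the groups overlapped (difference -3.62, SE 3.05, adjusted p = 0.642 by limma). With 1 mouse left out the difference ranged from -5.70 (without control mouse 1) to -2.54 (without Tip60 cKO mouse 4). The fold enrichment at the 5′ end was 5.61 ± 0.487 in Tip60 cKO and 7.12 ± 1.0 in controls (SD, n = 5, exact permutation p = 0.0238), each against the input of its own genotype. Nlgn1 also had a lower fold enrichment in Tip60 cKO (5.69 ± 0.516 against 6.75 ± 0.796, SD, n = 5, p = 0.0238 by the exact test). The remaining genes did not pass. Of all genes, 16.8% were lower and 2.53% higher in fold enrichment at p below 0.05. The protein-coding gene Tmem256 starts 730 bp away in the same window, and a peak there cannot be assigned to either gene alone. The promoter is shown because it belongs to the gene with the highest control score, from RefSeq on GRCm38.p6 (chr11:69837735-69838034, minus strand, 250 bases before to 50 after the start), with CpG dinucleotides in capitals.
Nlgn2 promoter: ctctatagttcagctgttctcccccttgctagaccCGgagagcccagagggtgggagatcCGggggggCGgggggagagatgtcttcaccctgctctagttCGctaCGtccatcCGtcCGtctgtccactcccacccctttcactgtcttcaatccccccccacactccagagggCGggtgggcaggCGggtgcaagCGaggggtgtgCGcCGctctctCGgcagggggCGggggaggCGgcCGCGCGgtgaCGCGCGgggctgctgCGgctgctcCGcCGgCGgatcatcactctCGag
The sequence holds 26 CpG and 68.7% G and C, and 83.1% of 32851 RefSeq promoters have fewer CpG. The GC box letters GGGCGG, searched on both strands, occur 3 times, and 35.7% of all these promoters hold them.

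Nlgn1, the neuroligin of excitatory synapses, scored 88.8, 91.9, 85.6, 90.9 and 86.3 in Tip60 cKO and 92.0, 87.2, 94.1, 90.1 and 88.8 in controls. The groups overlapped, with adjusted p = 0.774 by limma. The peaks covered 52.7 ± 12.0% of the 4 kb window in Tip60 cKO and 63.8 ± 5.64% in controls (SD, n = 5, exact permutation p = 0.0635), with Tip60 cKO mouse 5 lowest at 32.02%. The antisense transcript A830092H15Rik starts 1310 bp away in the same window.

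Nrxn2 had rank scores from 81.5 to 94.6 in Tip60 cKO (median 91.0) and from 87.2 to 91.4 in controls (median 90.4). Tip60 cKO mice 3 and 5 were below all controls and mice 2 and 4 above them (adjusted p = 0.814 by limma). The start of the transcript Gm14965 lies 125 bp away. Nrxn3 had no peak within 2 kb of its annotated 5′ end in 8 of 10 lists, and scores of 73.0 and 65.5 in controls 3 and 5 (adjusted p = 0.503 by limma). The transcripts at that end are annotated as retained introns or as targets of nonsense-mediated decay, and the α-type coding transcript Nrxn3-205 (1571 residues) starts 71.6 kb further down. There a peak was called only in Tip60 cKO mouse 4, at a rank score of 75.5.

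Among the Lrrtm genes, Lrrtm1 scored 94.8, 90.6, 83.8, 96.2 and 94.6 in Tip60 cKO and 68.5, 91.3, 87.8, 94.0 and 96.7 in controls. Control mouse 1 stood below all others and the groups overlapped (adjusted p = 0.778 by limma). Lrrtm2 lay between 73.6 and 79.9 in Tip60 cKO and between 73.2 and 84.2 in controls, with a difference of 0.30 (SE 2.48, adjusted p = 1.0 by limma). Lrrtm3 had a peak in all 5 Tip60 cKO mice (69.6 to 84.1) and in 4 of 5 controls (67.9 to 84.8), control mouse 1 being without one. Lrrtm4 had scores of 82.3, 72.5, 74.3, 68.3 and 0 in Tip60 cKO and of 76.9, 79.0, 72.4, 77.2 and 72.6 in controls. Only Tip60 cKO mouse 5, the library with the fewest peaks, had no peak at Lrrtm4, and the difference was -16.1 (SE 14.2, adjusted p = 0.659 by limma), and -1.26 without that mouse.

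The width of the mark at the Lrrtm4 start was smaller in Tip60 cKO. Peaks covered 15.2, 9.25, 8.22, 8.65 and 0% of the 4 kb window in Tip60 cKO mice 1 to 5 and 23.8, 14.3, 24.6, 16.1 and 28.5% in controls 1 to 5. Only Tip60 cKO mouse 1 was above the lowest control mouse, and the means were 8.26 ± 5.42% and 21.5 ± 6.03% (SD, n = 5, exact permutation p = 0.0159, unadjusted). Lrrtm4 was the only one of the 8 genes with p below 0.05 for this measure. Of all genes tested, 18.7% were lower and 0.757% higher at this threshold, so 1 of 8 genes is not above the background. When all libraries were cut to equal peak numbers the exact permutation p was 0.119, and with a window of 1 kb it was 0.103.

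Lrrtm1, Lrrtm2 and Lrrtm3 each lie inside a gene of an α-catenin, proteins that link cadherins to the cytoskeleton, on the opposite strand. Lrrtm1 lies in Ctnna2, Lrrtm2 in Ctnna1 and Lrrtm3 in Ctnna3. The 5′ end of Ctnna2, 737010 bp from that of Lrrtm1, scored 77.8, 74.5, 83.1, 88.7 and 82.3 in Tip60 cKO and of 92.0, 91.3, 92.5, 92.7 and 91.0 in controls. All 5 Tip60 cKO mice were below all controls, as at 1.62% of all genes, but the gene was not called (difference -10.6, SE 2.64, adjusted p = 0.129 by limma). Ctnna1 had a peak in 4 of 5 Tip60 cKO and 5 of 5 controls and Ctnna3 in 1 of 5 each.

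At 2 peaks on internal starts of Nrxn2 the rank scores did not overlap between genotypes, 1 being higher and 1 lower in Tip60 cKO, while limma called neither peak region and the other Nrxn2 starts had an exact permutation p of 0.0556 or more. Alternative starts are annotated transcript starts more than 2 kb from the 5′ end, merged within 500 bp, and the 8 genes have 21 of them. Single values of the 8 genes were compared 45 times, as TSS rank score, TSS coverage, gene body coverage or alternative start, and 5 had an exact permutation p below 0.05 without adjustment. Over all alternative starts with a peak in at least 2 lists, 4.69% were lower and 5.83% higher at that p. Counting also the fold enrichment at the 5′ end, the relative coverage, the number of peaks and the base pairs per peak of the gene body, 77 exact tests were made and 13 had p below 0.05, 10 lower and 3 higher in Tip60 cKO. Over all genes, differences in peak length, peak number, coverage percent and TSS fold enrichment past that p were also lower more often than higher, as the shares beside these measures show. Of the 5 values, 3 were Nrxn2 starts, among which 2 share a peak.

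The start at 9.19 kb (Nrxn2-216 and Nrxn2-208, the latter with 1710 residues) had a higher rank in Tip60 cKO. A rank is relative to the other genes of the library, so this is not a measured gain of the mark. Its rank scores were 80.7, 84.2, 79.9, 92.6 and 87.2 in Tip60 cKO mice 1 to 5 and 78.8, 72.2, 73.2, 75.3 and 76.8 in controls 1 to 5. The groups did not overlap, with means of 84.9 ± 5.22 and 75.3 ± 2.69 (SD, n = 5, exact permutation p = 0.00794). Of 11948 alternative starts with a peak in at least 2 lists, 1.54% were higher in Tip60 cKO without overlap. Within lane 7 (mice 1 to 3) the mean difference was 6.84 and within lane 8 (mice 4 and 5) 13.8. The start at 9.92 kb takes its score from the same peak. Ranked among all consensus regions in place of start windows, the same peaks overlapped between genotypes (85.5 to 97.1 against 72.0 to 87.2), and limma did not call the region (adjusted p = 0.418). The region (chr19:6427725-6429109) holds the first coding exon of the α-type transcripts, whose first 300 coding bases (chr19:6428049-6428348, plus strand, GRCm38.p6) are shown with CpG dinucleotides in capitals.
Nrxn2 first coding bases: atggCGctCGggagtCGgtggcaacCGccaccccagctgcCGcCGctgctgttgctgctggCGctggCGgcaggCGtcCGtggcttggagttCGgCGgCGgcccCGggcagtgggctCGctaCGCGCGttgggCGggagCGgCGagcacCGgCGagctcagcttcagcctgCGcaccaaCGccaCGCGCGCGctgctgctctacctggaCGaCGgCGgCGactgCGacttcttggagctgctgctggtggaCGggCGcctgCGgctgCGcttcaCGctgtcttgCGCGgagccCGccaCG
They hold 43 CpG and 73.7% G and C. In the 300 bases around the summit of this region there are 40 CpG, more than in 98.9% of 144777 windows of the same length centred on consensus regions.

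The start at 78.9 kb scored lower in Tip60 cKO. Here the transcripts Nrxn2-202 and Nrxn2-203, with 660 and 353 residues, begin beside the non-coding Nrxn2-211, at the place of the β promoter. The rank scores were 96.2, 87.5, 97.1, 88.7 and 96.8 in Tip60 cKO and 99.1, 99.2, 97.6, 99.6 and 99.3 in controls. All 5 Tip60 cKO mice were below all controls, with means of 93.3 ± 4.72 and 99.0 ± 0.774 (SD, n = 5, exact permutation p = 0.00794). Across alternative starts 1.08% were lower without overlap. The difference was -5.05 within lane 7 and -6.70 within lane 8. The control scores put this internal start above the annotated 5′ end of each of the 8 genes. The fold enrichment of its region was 6.66 ± 1.07 in Tip60 cKO and 9.96 ± 0.503 in controls (SD, n = 5). The region spans 5358 bp (chr19:6495342-6500699), and limma over all consensus regions did not call it (adjusted p = 0.909).

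Windows at the internal starts near the β-type transcripts of both neurexins are set side by side because their H4K12ac differs. Both run from 250 bases before to 50 after an annotated start on the plus strand of GRCm38.p6, with CpG dinucleotides in capitals, Nrxn2 at chr19:6497421-6497720 from the genome and Nrxn3 at chr12:89812233-89812532 from RefSeq. The Nrxn2 window is set on the non-coding Nrxn2-211, 78940 bp after the 5′ end. It ends before the coding Nrxn2-202 and Nrxn2-203 begin, at 79097 and 79104 bp. The Nrxn3 window is set on a coding start, so the CpG and GC box counts of the windows are not like for like.
Nrxn2 internal start: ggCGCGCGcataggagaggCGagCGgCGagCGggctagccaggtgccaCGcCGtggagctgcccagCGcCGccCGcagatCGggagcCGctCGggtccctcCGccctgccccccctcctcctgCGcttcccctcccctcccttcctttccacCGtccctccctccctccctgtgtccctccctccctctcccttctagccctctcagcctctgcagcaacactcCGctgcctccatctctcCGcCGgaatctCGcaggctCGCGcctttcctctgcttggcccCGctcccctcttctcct
Nrxn3 internal start: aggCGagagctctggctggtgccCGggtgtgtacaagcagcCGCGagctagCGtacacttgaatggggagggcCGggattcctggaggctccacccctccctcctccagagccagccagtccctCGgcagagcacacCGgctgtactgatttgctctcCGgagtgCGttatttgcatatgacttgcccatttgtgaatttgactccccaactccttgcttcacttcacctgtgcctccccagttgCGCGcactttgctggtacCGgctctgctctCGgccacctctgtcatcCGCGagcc
The Nrxn2 sequence holds 25 CpG and 2 GC boxes (GGGCGG on either strand), and the Nrxn3 sequence 16 CpG and 0. At the Nrxn3 start, 1090 kb from the 5′ end, where Nrxn3-202 and Nrxn3-203 (567 and 430 residues) begin, a peak was called in 3 of 5 Tip60 cKO mice (69.7 to 71.0) and 2 of 5 controls (69.3 and 69.6). The exact permutation p was 0.286, and the difference of 14.5 was 47.3 within lane 7 and -34.8 within lane 8.

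**Figure D2:**
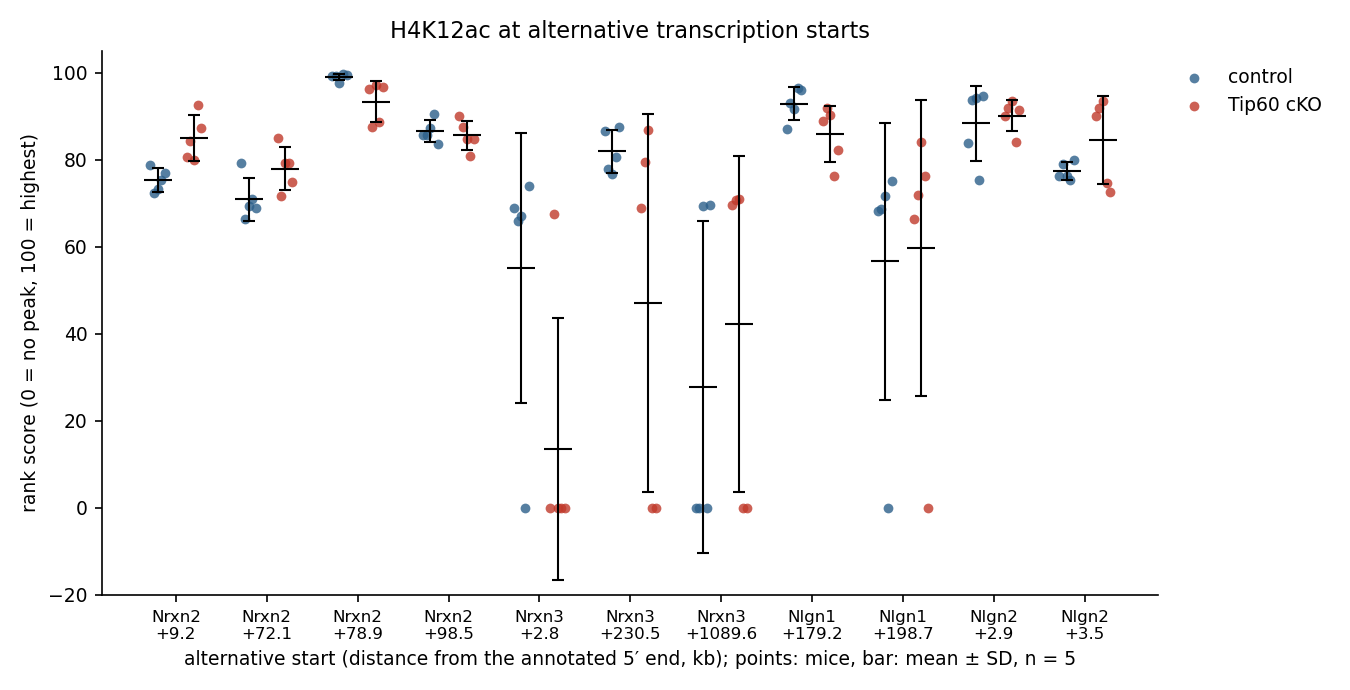
Rank scores at the alternative starts with a peak in at least 5 of 10 lists, by distance from the annotated 5′ end in kb, with 1 point per mouse, 0 for no peak and the mean ± SD (n = 5) in black (only error bars reach below 0). Tip60 cKO mice are all above the controls at Nrxn2 +9.2 kb and all below them at Nrxn2 +78.9 kb.

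Other alternative starts did not pass. At Nrxn2 +72.1 kb the scores were 77.9 ± 5.04 in Tip60 cKO and 70.9 ± 4.93 in controls (SD, n = 5, exact permutation p = 0.0556), and the difference of 7.04 became -4.13 when peaks were ranked by pileup in place of fold enrichment and 47.9 with equal peak numbers per library (exact permutation p = 0.0476 and 0.0397). Nrxn3 +231 kb, the start of Nrxn3-201 (1100 residues), had peaks in Tip60 cKO mice 1 to 3 (68.8, 79.4 and 86.8) and in all controls (76.8 to 87.5). Tip60 cKO mice 4 and 5 had none, and the exact permutation p was 0.119. Nlgn1 +179 kb, the start of Nlgn1-203 (814 residues), scored 85.9 ± 6.49 in Tip60 cKO and 92.8 ± 3.82 in controls (SD, n = 5, exact permutation p = 0.0794). At Nrxn3 +2.81 kb, with a peak in 1 of 5 Tip60 cKO mice and 4 of 5 controls, the difference was -41.7 (exact permutation p = 0.127). Single mice decided on which side of 0.05 the p of these 4 starts fell. The exact permutation p was 0.0397 for Nrxn2 +72.1 kb without Tip60 cKO mouse 2 and 0.0159 without control mouse 1. For Nrxn3 +2.81 kb it was 0.0476 without Tip60 cKO mouse 2 and 0.0317 without control mouse 4. For Nrxn3 +231 kb it was 0.0476 without Tip60 cKO mouse 2 and 0.0238 without mouse 3. For Nlgn1 +179 kb it was 0.0476 without Tip60 cKO mouse 2 and 0.0397 without control mouse 1.

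In the gene bodies (from 2 kb after the 5′ end to the gene end) 0 of 8 genes were called by limma over 12823 genes, where 0.273% were called lower and 0.078% higher. Lrrtm4 and Nrxn2 had an unadjusted p below 0.05, 1 lower and 1 higher, against 8.8% and 5.08% of all genes. The covered share of the body was divided by the covered share of the genome in the same list, since the lists differ in length, and is called relative coverage.

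The Nrxn2 body was covered by peaks to a larger share than those of the other long genes. Peaks covered 17.3 ± 2.57% of its body in controls (SD, n = 5), against 1.28 ± 0.389% for Nrxn3, 1.67 ± 0.482% for Nlgn1, 1.20 ± 0.540% for Lrrtm3 and 0.935 ± 0.299% for Lrrtm4. The median of 2429 protein-coding genes with a body of at least 100 kb was 1.13%, and Nrxn2 lay at percentile 96.8 among them. Peaks in a body were counted whichever start or gene they belong to. Nrxn2 holds 9 alternative starts and 3 other genes, among them the coding gene Slc22a12. Nrxn3 holds 7 and 5, Nlgn1 2 and 3, Lrrtm3 0 and 0, and Lrrtm4 0 and 8, without a coding gene. Of its 25 regions 12 had a peak in all 10 lists, while this held for 2 of 92 in Nrxn3, 3 of 75 in Nlgn1 and 0 of 38 in Lrrtm4. Over all 8 genes it held for 20 of 259 regions (7.72%), and over all consensus regions for 16.4%.

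The relative coverage of the Nrxn2 body was 10.4, 10.4, 10.6, 11.0 and 10.8 in Tip60 cKO mice 1 to 5 and 8.70, 8.15, 9.08, 8.95 and 7.37 in controls 1 to 5. All Tip60 cKO mice were above all controls (exact permutation p = 0.00794, n = 5), where 1.75% of all genes were higher without overlap. The limma difference was 0.33 on the log2 scale (SE 0.139, adjusted p = 0.336). Without scaling to the list the covered percent was 17.0 ± 5.23 in Tip60 cKO and 17.3 ± 2.57 in controls (SD, n = 5), the exact permutation p was 0.913 and the log2 difference was -0.0796. The higher relative value stands beside a mean covered share that differed little between genotypes, in shorter lists, which covered 1.61 ± 0.514% of the genome in Tip60 cKO and 2.07 ± 0.391% in controls. With equal peak numbers per library the log2 difference in relative coverage was 0.419 in place of 0.33. The part of list length in the higher relative value was not tested.

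Lrrtm4, whose product binds neurexins and is known from dentate granule cells, had fewer peaks along its body in Tip60 cKO. Relative coverage was 0.189, 0.275, 0.303, 0.228 and 0.250 in Tip60 cKO mice 1 to 5 and 0.376, 0.484, 0.445, 0.371 and 0.545 in controls 1 to 5. The groups did not overlap (exact permutation p = 0.00794, n = 5), where 2.62% of all genes were lower without overlap. The limma difference was -0.64 on the log2 scale (SE 0.169, adjusted p = 0.164). Unscaled, peaks covered 0.398 ± 0.138% and 0.935 ± 0.299% of the body (SD, n = 5, exact permutation p = 0.0159, where 13.9% of all genes were lower and 0.647% higher at p below 0.05), and the numbers of peaks were 13, 15, 17, 11 and 7 against 23, 32, 25, 14 and 35 (exact permutation p = 0.0238, where 5.92% of all genes were lower and 0.733% higher). With equal peak numbers per library the difference in covered percent was -0.197 in place of -0.538 (exact permutation p = 0.00794). The difference in covered percent was -0.470 within lane 7 and -0.639 within lane 8. Of the 38 regions 30 had a lower mean in Tip60 cKO, and the direction was lower for 56.9% of all consensus regions. Of these regions 36 lie in the body and hold the peaks counted above, and 23 of the 38 had a peak in only 2 or 3 lists. The 30 therefore describe the same peaks again and add no support.

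**Figure D3:**
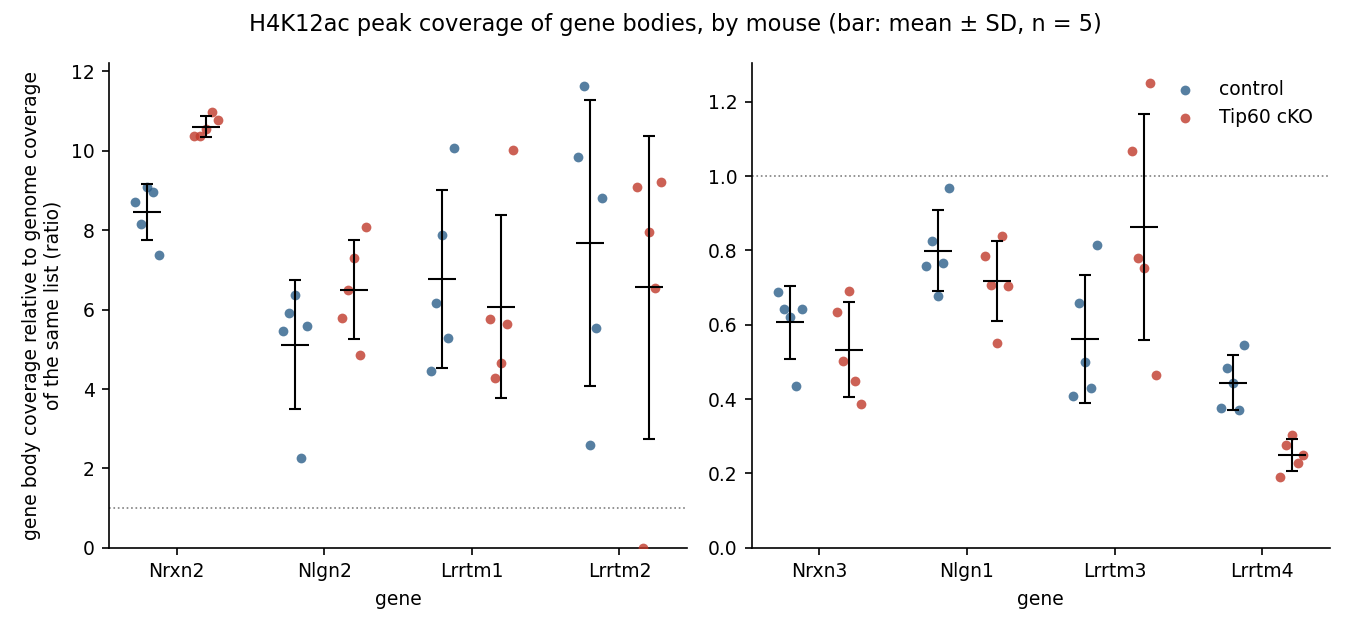
Gene body coverage divided by the genome coverage of the same list, with 1 point per mouse and the mean ± SD (n = 5) in black; the dotted line at 1 marks the genome level and the panels have different scales. Nrxn2 lies higher in all Tip60 cKO mice (10.4 to 11.0 against 7.37 to 9.08) and Lrrtm4 lower (0.189 to 0.303 against 0.371 to 0.545).

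The remaining bodies overlapped between genotypes. Relative coverage was 0.533 ± 0.128 and 0.607 ± 0.0988 for Nrxn3, 0.718 ± 0.109 and 0.7996 ± 0.108 for Nlgn1, and 0.863 ± 0.304 and 0.563 ± 0.172 for Lrrtm3 in Tip60 cKO and controls (SD, n = 5). For the short bodies of Nlgn2, Lrrtm1 and Lrrtm2 it was 6.50 ± 1.26 and 5.12 ± 1.63, 6.07 ± 2.301 and 6.77 ± 2.24, and 6.56 ± 3.82 and 7.68 ± 3.61. The smallest adjusted p among these 6 genes was 0.464 by limma, for Lrrtm3. The mean peak of the body was shorter in Tip60 cKO at an exact permutation p below 0.05 in 3 of 8 genes, where 15.5% of 6387 genes with body peaks in all lists were lower and 0.391% higher. It measured 306 ± 56.3 and 380 ± 29.4 bp in Nrxn3 (p = 0.0397), 294 ± 32.8 and 338 ± 19.8 bp in Nlgn1 (p = 0.0317) and 247 ± 18.1 and 287 ± 11.9 bp in Lrrtm4 (p = 0.0159; SD, n = 5, exact permutation tests).

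Of the 259 regions 1 was called, in an intron of Lrrtm4, a share of 0.386%, where limma called 0.476% of all consensus regions lower and 0.0863% higher. The region (chr6:80232007-80232671, 665 bp) has its summit 213682 bp after the 5′ end. No Tip60 cKO list had a peak there, and the control lists had peaks of 3.27, 2.70, 3.36, 3.03 and 3.92 fold enrichment in mice 1 to 5, at rank scores of 60.6, 44.0, 61.2, 61.0 and 75.0. These are moderate peaks in all 5 controls and peaks below the threshold, or none, in all 5 Tip60 cKO mice. The region passed the filter of 2 lists through the controls alone, so it had to differ, and the Tip60 cKO scores, all 0, add no spread to the SE, so the values below describe the region and support nothing further. The difference in rank score was -60.4 (SE 6.48, adjusted p = 0.00125 by limma). The adjusted p was not below 0.05 with the replicate number as a block (adjusted p = 0.0594) or with a mean-dependent robust prior (adjusted p = 0.248). With equal peak numbers per library only 1 control list kept a peak there, and the region was not tested. The 300 bases of the region that hold the summit (chr6:80232372-80232671, plus strand, GRCm38.p6) are shown since this is the only region called, with CpG dinucleotides in capitals.
Lrrtm4 intron region: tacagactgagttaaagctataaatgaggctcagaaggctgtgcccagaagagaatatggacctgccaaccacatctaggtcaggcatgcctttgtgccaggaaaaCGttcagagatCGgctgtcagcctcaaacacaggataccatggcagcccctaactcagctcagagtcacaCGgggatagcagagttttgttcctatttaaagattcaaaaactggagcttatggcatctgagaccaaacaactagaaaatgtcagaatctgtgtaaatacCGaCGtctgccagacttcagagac
They hold 5 CpG and 46.3% G and C, against a median of 4 CpG over 144777 windows of the same length, and no GGGCGG, TGACGTCA or CACGTG on either strand.

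**Figure D4:**
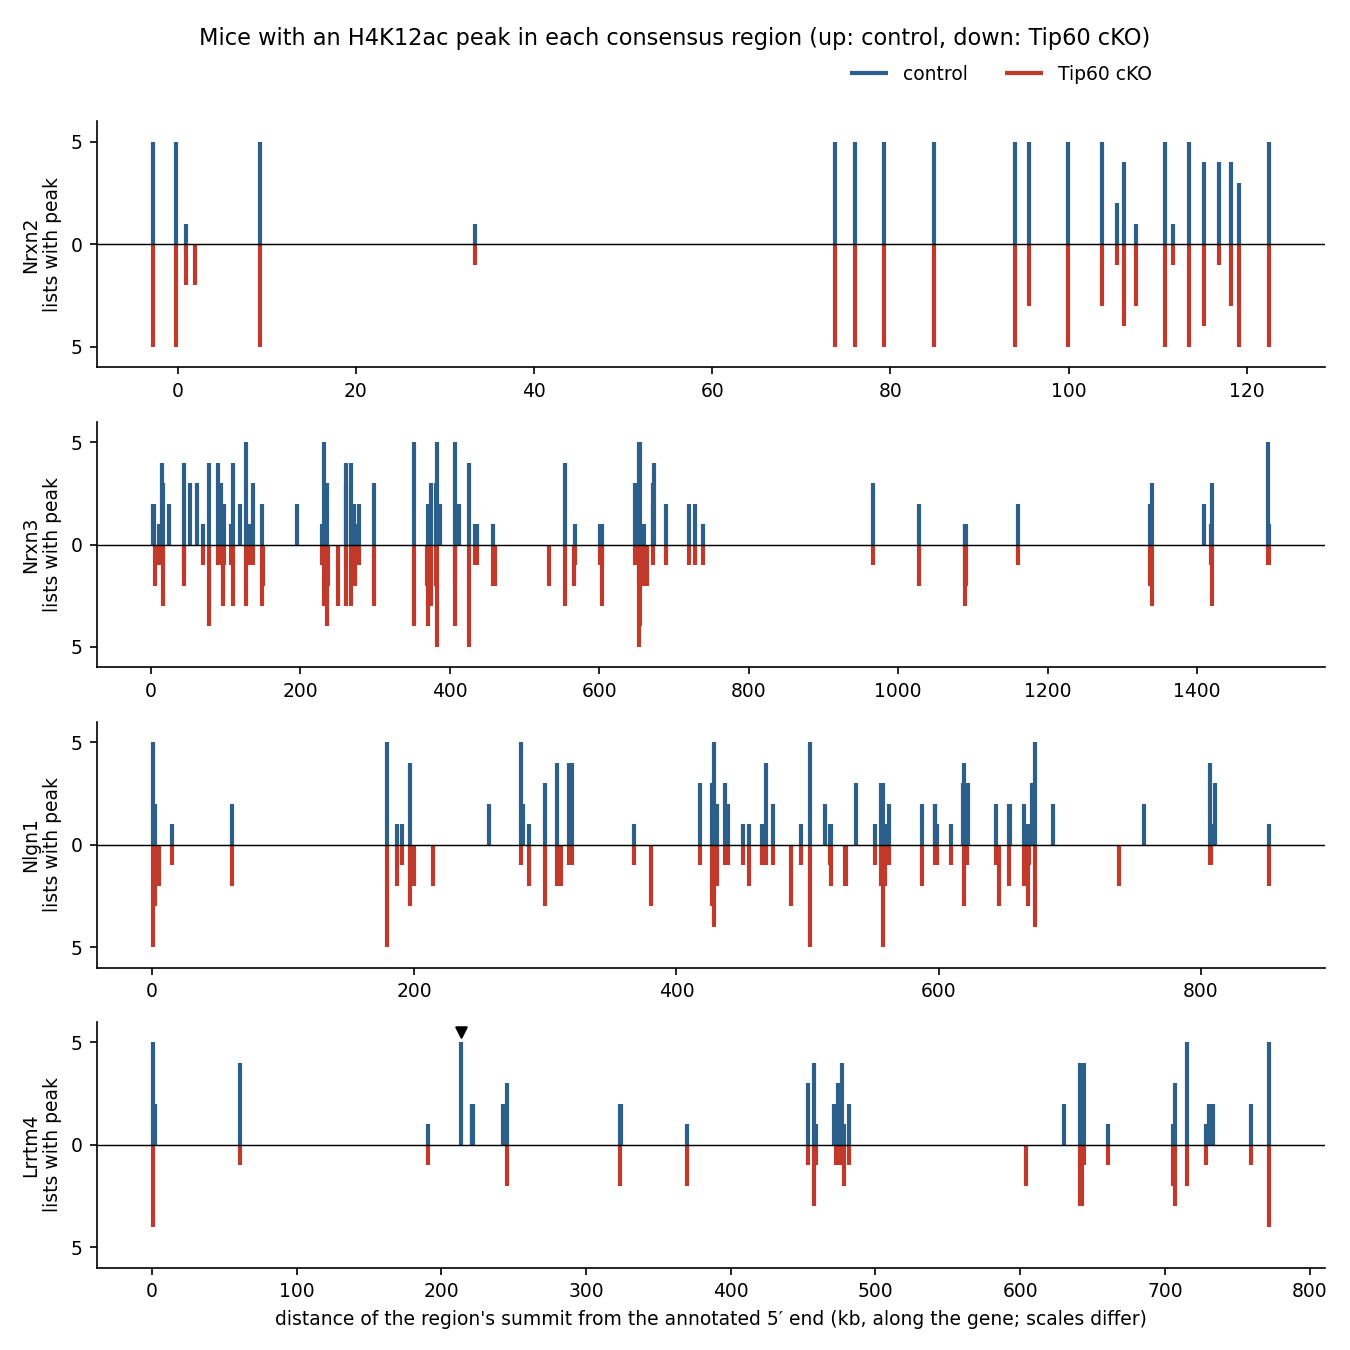
Number of mice with a peak in each consensus region of 4 genes, control above and Tip60 cKO below the line, by distance of the summit from the annotated 5′ end in kb; the triangle marks the region called by limma. In Nrxn2 12 of 25 regions reach 5 mice on both sides, in Lrrtm4 0 of 38.

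Of the 259 regions 22 were lower and 8 higher at an unadjusted p below 0.05, the called one included, against 8.34% and 3.68% of all consensus regions. The next smallest p belonged to an intron region of Nrxn3 1494943 bp after the 5′ end (chr12:90217711-90218075), with a peak in 1 of 5 Tip60 cKO and 5 of 5 controls (adjusted p = 0.0612 by limma). An intron region of Nlgn1 (chr3:25774635-25775178) went the other way, with rank scores of 75.1 to 86.7 in Tip60 cKO and of 0 to 61.8 in controls (adjusted p = 0.121 by limma). The pileup there was 12 to 23 tags in Tip60 cKO and 0 to 25 in controls, and the local input background behind the fold enrichment averaged 1.11 times the genome-wide level of the list for Tip60 cKO peaks and 2.15 times for control peaks, and the part of this difference in the rank scores was not tested.

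Of 34 genes whose products bind or anchor these proteins, 30 had peaks in at least 2 lists and 0 were called by limma, with 5 lower and 2 higher at an unadjusted p below 0.05. The share of all genes lower at that p was 6.68% and the share higher 5.1%. The list holds cerebellins and C1q-like proteins, neurexophilins, latrophilins, FLRT proteins, calsyntenins, receptor phosphatases and scaffolds. Cbln2, a secreted cerebellin that bridges neurexins to glutamate receptor δ proteins, had the smallest p, with rank scores of 65.5, 74.5, 74.3, 77.3 and 0 in Tip60 cKO and no peak in any control mouse (adjusted p = 0.112 by limma). It was tested through the Tip60 cKO lists alone, and the control scores, all 0, add no spread to this p. Gpc4, a glypican that binds LRRTM4, had a peak in 1 of 5 Tip60 cKO mice (77.3) and in all controls (67.9 to 78.3, adjusted p = 0.160 by limma). C1ql2 was 77.8 ± 5.65 and 87.1 ± 4.05 and Clstn1 91.9 ± 2.95 and 97.2 ± 1.4997 in Tip60 cKO and controls (SD, n = 5), with adjusted p = 0.334 and 0.347 by limma. Both C1ql2 and C1ql3 proteins are known ligands of neurexins. For 25 of 34 genes a peak was found in all 10 lists, 83.3% of the 30 tested, against 13004 or 60.0% of all genes tested. All genes tested include non-coding ones and the partner list does not, so these shares are not like for like. Cbln1, Cbln4, Mdga1 and Cask had a peak in 0 or 1 list and were not tested.

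The protein-coding genes most like each gene in TSS rank score, by the smallest mean absolute difference over 10 libraries, were Csdc2 for Nrxn2 (1.96), Flvcr2 for Nrxn3 (0.309), Psme2 for Nlgn1 (1.75) and Champ1 for Nlgn2 (1.60). For the Lrrtm genes they were Ccdc17 for Lrrtm1 (2.92), Utp20 for Lrrtm2 (1.94), Cmpk1 for Lrrtm3 (4.06) and Pkd1l3 for Lrrtm4 (2.15). Between 3 (Lrrtm3) and 2430 (Nlgn1) coding genes lay within a mean difference of 5, so that the nearest gene is 1 of many for most members.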

How the data were processed

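H4K12ac ChIP-Seq of sorted hippocampal neuronal nuclei from 5 Tip60 cKO and 5 control mice was used, and each genotype had 1 pooled input. Reads were aligned by the authors to mm10 with STAR and stripped of duplicates with samtools, and peaks were called per mouse against the input of its genotype (MACS 2.1.0.20140616, q below 0.1). The deposited lists give, per peak, the pileup (a coverage signal at the summit), the fold enrichment over the local input background (a ratio) and p-value and q-value as −log10. Between 22864189 and 37923809 tags per library entered the calls. The lists hold no reads per region, so no counting error is given, the precision is the spread between mice, and a missing peak means only that the threshold was not reached at that depth. No column of another sample was used.

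TSSs, transcripts and gene bodies were taken from GENCODE M21 on GRCm38 (mm10). A peak counted with at least 1 base of overlap. Rank scores (of TSSs and regions that had peaks in 2 lists or more) and log2 of relative body coverage plus 0.1 were compared with limma 3.58.1 (lmFit, eBayes) in R 4.3.3 over all features, with Benjamini-Hochberg adjustment at 0.05. This step was tested on simulated data. Single values were compared by the two-sided exact permutation test (252 assignments, smallest p 0.00794), without adjustment, in Python 3.11.15 with numpy 2.4.6, pandas 2.3.3 and scipy 1.17.1. RefSeq promoters were read for 6 of 8 genes.

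Named were the 8 genes, their host genes, the partner genes past the threshold or otherwise the 4 with the smallest p, and for regions those at starts, those called and those with the smallest p. Members, lists and tests were chosen with earlier results of these data known. Alternatives were q below 0.01, equal peak numbers (64245 per list), windows of 1 kb, ranking by pileup, no filter or peaks in at least 5 lists, a pseudocount of 0.5, unscaled coverage, a robust prior, omission of each mouse, a block for the replicate number, and the lane number in the deposited file names (7 for mice 1 to 3, 8 for mice 4 and 5) as a term or separately. Body coverage without windows around alternative starts was added after seeing the data. Labels and paper differ in strain and sex of the mice, which entered no comparison. Of the oligodendrocyte list, 1 marker is not reported here.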

Additional observations from a re-analysis of the deposited data

Results flagged for a closer look

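Single mice that stood far from the other 4 of their group were looked for in 70 groups of 5 values of the 8 genes, and 15 were found. Chance gives about 1 in 20 groups of continuous values, a rate that does not apply to 7 of the 15, in which a missing peak scored as 0 sets the gap.

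At the annotated 5′ ends, the rank score of Nrxn2 was 87.2 in control mouse 2 (the others 90.2 to 91.4), that of Nlgn2 83.8 in control mouse 1 (92.7 to 95.2) and that of Lrrtm2 84.2 in control mouse 3 (73.2 to 76.4). Lrrtm3 had a score of 0 in control mouse 1 (67.9 to 84.8) and Lrrtm4 a score of 0 in Tip60 cKO mouse 5 (68.3 to 82.3). Peaks covered 30.5% of the Nlgn2 window in control mouse 4 (65.8 to 79.8%).

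In the gene bodies, relative coverage of Nrxn3 was 0.435 (0.621 to 0.689) and of Nlgn2 2.27 (5.46 to 6.36) in control mouse 4, which had the fewest peaks of the control mice. Lrrtm1 stood at 10.03 in Tip60 cKO mouse 5 (4.27 to 5.77) and Lrrtm2 at 0 in Tip60 cKO mouse 2 (6.55 to 9.21).

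At alternative starts, Nrxn2 +78.9 kb scored 97.6 in control mouse 3 (99.1 to 99.6), which was still above all Tip60 cKO mice. Nrxn3 +2.81 kb scored 67.4 in Tip60 cKO mouse 2 (0 in the others) and 0 in control mouse 4 (65.9 to 74.0). Nlgn1 +199 kb scored 0 in Tip60 cKO mouse 5 (66.5 to 84.0) and 0 in control mouse 4 (68.2 to 75.0).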

How the results depend on the processing

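No gene of the 8 was called at its 5′ end or in its body by limma under any alternative run. The differences at Nrxn2 +9.19 kb (7.70 to 10.9 over 15 alternatives, exact permutation p at most 0.0238) and Nrxn2 +78.9 kb (-6.66 to -4.28, p at most 0.0397) kept their direction and p below 0.05, as did the covered percent of the Lrrtm4 body (-0.637 to -0.197, p at most 0.0238). At the Nrxn2 starts the groups did not overlap, so leaving out 1 mouse could not turn the direction. Those runs are no test of it. Of 538 recomputed values of these genes 500 kept direction and side of the threshold. Some alternatives, such as the replicate block, leave a rank score difference itself unchanged, and the Nrxn2 start that shares its peak with +9.19 kb is counted again. This count is therefore no measure of stability.

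The number of genes called by TSS rank score was 51 (34 lower, 17 higher). It was 86 with the robust prior (26 lower, 60 higher), 58 with equal peak numbers (30 and 28), 83 without Tip60 cKO mouse 5 (42 and 41), 232 in lane 7 alone, 930 in lane 8 alone and 57 to 101 with 1 library left out (over 1.5 times higher without Tip60 cKO mouse 1, 2, 4 or 5, at 101, 84, 85 and 83). Consensus regions called numbered 814 (689 lower, 125 higher), against 449 with the same number of peaks per library (306 and 143), 254 with the replicate block, 318 with the robust prior (201 and 117), 3916 in lane 7 alone, 8390 in lane 8 alone and 931 to 1411 with 1 library left out (1411 without control mouse 4). Without Tip60 cKO mouse 5, 674 were lower and 419 higher, while leaving out any other mouse gave 140 to 207 higher. Gene bodies called numbered 45 (35 lower, 10 higher), against 16 with the replicate block, 29 without scaling, 133 in lane 7 alone and 287 in lane 8 alone. With 1 library left out they numbered 34 to 58, with 2 (without control mouse 4) to 13 (without Tip60 cKO mouse 5) higher. In the separate lanes, with 2 or 3 mice a group, many features had no spread, and these counts are unreliable. Of the 45 single values, those with an exact permutation p below 0.05 numbered 5, and 5 to 9 with 1 mouse left out (9 without Tip60 cKO mouse 2 or control mouse 4).

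The sign turned, without a call, for the TSS rank score of Nlgn1 by pileup (2.96), of Lrrtm2 by pileup (-1.38), with windows of 1 kb (-0.77) and in lane 8 (-0.16), and of Lrrtm4 in lane 7 (0.26). In gene bodies it turned without scaling for Nrxn2 (-0.0796) and Nlgn2 (-0.0046), for Lrrtm1 with the same number of peaks (0.20) and in lane 8 (0.0445), and for Lrrtm2 in lane 8 (0.15). At alternative starts it turned for Nrxn2 +72.1 kb by pileup (-4.13), Nrxn2 +98.5 kb with windows of 1 kb (1.49) and Nlgn2 +3.53 kb at q below 0.01 (-7.40), and within a lane for Nrxn2 +98.5 kb (1.17 in lane 7), Nrxn3 +1090 kb (-34.8 in lane 8), Nlgn2 +3.53 kb (-4.12 in lane 8) and Nlgn2 +9.225 kb (3.72 in lane 8). The TSS coverage percent turned in lane 8 for Nrxn2 (-9.34 against 7.79 in all mice) and Lrrtm1 (3.89 against -0.160). The covered percent of the body turned for Nrxn2 (1.08 in lane 7 against -0.326) and Lrrtm3 (-0.135 in lane 8 against 0.261). With 1 mouse left out, the TSS difference ranged from -0.44 to 6.60 for Lrrtm1 and from -0.58 to 2.16 for Lrrtm2, the log2 body difference of Lrrtm2 from -1.38 to 0.25, and the start difference from -2.08 to 0.17 for Nrxn2 +98.5 kb, from -11.2 to 17.9 for Nlgn1 +199 kb and from -1.44 to 3.38 for Nlgn2 +2.94 kb. The causes were not tested. The called Lrrtm4 region had adjusted p from 0.000176 to 0.248, and could not be scored with the same number of peaks per library. Limits are the lack of counts, 5 mice a group and peaks called against different inputs.

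The replicate numbers are not described as pairs. Deviations of same-numbered mice correlated between -0.0375 and 0.0552 over TSSs, with 0 of 5 pairs over 0.1. With the replicate block, 35 genes, 254 regions and 16 bodies were called, and the Lrrtm4 region lost its call (adjusted p = 0.0594, difference -60.4). The exact tests of single values were run without pairs.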
